A study of Mus musculus with 16 samples.

Results

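The genes described here are 9 genes of fatty acid synthesis and of the supply of its reducing power, NADPH: Srebf1, Acaca, Acacb, Fasn, Slc25a1, Me1, G6pdx, Pgd and Thrsp. They were taken by symbol, as 9 of the 24091 genes of the deposited expression table. The libraries hold RNA of caecal epithelial cells from C57BL/6 mice, an inbred laboratory strain, in 3 groups of 3. In the first group mice drank ampicillin, an antibiotic, at 1 g/L and received a gavage of tributyrin, the ester of glycerol with butyrate. In the second they drank ampicillin at 1 g/L and received a mock gavage of 25% glycerol. In the third, the vehicle group, they drank no ampicillin and received the mock gavage. All 3 groups drank 10 g/L Splenda, a sweetener, and were treated for 7 days, and tissue was taken 6 h after the gavage. No group received tributyrin without ampicillin, and the dose of tributyrin and the age of the mice are not stated in the labels. The other 7 samples, chromatin immunoprecipitations and an input, were not analysed here.

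Fatty acid synthesis starts from citrate, which the carrier Slc25a1 exports from mitochondria and which is split in the cytosol to acetyl-CoA. Acetyl-CoA carboxylase (Acaca, Acacb) turns acetyl-CoA into malonyl-CoA, and fatty acid synthase (Fasn) builds palmitate from both with electrons from NADPH. NADPH comes from the pentose phosphate pathway (G6pdx, Pgd), from malic enzyme (Me1) and from other dehydrogenases, and SREBP1, encoded by Srebf1, is a transcription factor that drives many of these genes. In the large intestine, bacterial butyrate is a main fuel of the epithelium and is broken down to the same acetyl-CoA from which fat is made.

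Values are TPM, a transcript level corrected for transcript length and scaled to the same total in each library, so levels can be compared between genes. Entries of short RNA took 4.19% to 6.32% of the total with vehicle and 3.32% to 6.02% with ampicillin and mock gavage. With tributyrin they took 2.84% to 3.31%, so the total left to other genes differed between libraries. TPM keeps no sequencing depth, which is therefore unknown, and between 17242 and 17722 genes were above 0 in a library. Log2 values correlated at 0.976 to 0.981 between libraries of 1 group and at 0.964 to 0.975 between groups. Markers of epithelium were present as labelled, with Epcam between 1135 and 1445 TPM. Vehicle replicate 2 stood apart in transcripts of the small intestine: Fabp6, the ileal bile acid binding protein, was between 1.84 and 4.46 TPM in the ampicillin libraries, against 12.3, 345 and 53.4 TPM in vehicle replicates 1, 2 and 3. Whether each library is a mouse of its own is not labelled, and the p-values therefore reflect only how these libraries scatter, which may be technical. Means carry their SD (n = 3) and log2 fold changes, on the log2(TPM + 1) scale, their SE from limma, with p-values of the limma fit over 12155 genes after Benjamini-Hochberg adjustment. A gene is said to have risen or fallen where that adjusted p was under 0.05.

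Of the 9 genes, 8 were tested and 1, Thrsp, was left out as its mean was under 1 TPM. Averaged over the 9 libraries, the order of levels was Pgd (296 TPM), Slc25a1 (163 TPM), G6pdx (69.0 TPM), Srebf1 (36.9 TPM), Fasn (35.6 TPM), Acaca (9.23 TPM), Me1 (5.34 TPM), Acacb (4.71 TPM) and Thrsp (0.00738 TPM). Srebf1 (32.6 to 40.6 TPM) and Fasn (27.1 to 42.4 TPM) changed places between libraries. Acaca (7.91 to 10.3 TPM) was above Me1 (3.72 to 9.13 TPM) within every library, although their ranges over all groups overlapped. Me1 was above Acacb (3.30 to 6.20 TPM) in every library without tributyrin and below it in the 3 libraries with tributyrin. Both dehydrogenases of the pentose phosphate pathway had higher levels in every library than Fasn, Acaca and Acacb, the enzymes of the chain from acetyl-CoA to palmitate.

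Counted over the 8 tested genes, ampicillin with mock gavage against vehicle gave 3 that fell (Me1, Acacb and Slc25a1) and 0 that rose. Of all 12155 genes, 21.3% were called in that comparison, 10.2% as lower. The members' median log2 fold change was -0.18, against 0.02 for all genes. The libraries of both groups did not overlap for 1 member that was higher, beside 22.6% of all genes, and for 4 that were lower, beside 18.2%, together 5 of 8 beside 40.8%.

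Tributyrin against mock gavage among ampicillin-treated mice gave 2 that rose (Acacb and G6pdx) and 0 that fell. That is 25.0% of the 8 beside 23.2% of all genes, a share near the background, with 15.6% of all genes rising and 7.54% falling. The median was -0.12, against 0.05 for all genes. The groups did not overlap for 2 members that were higher, beside 27.3% of all genes, and for 3 that were lower, beside 15.3%, together 5 of 8 beside 42.6%. Ampicillin with tributyrin against vehicle gave 1 that rose (Acacb) and 4 that fell (Me1, Slc25a1, Fasn and Pgd), beside 28.3% of all genes called, 19.1% as higher and 9.21% as lower. The median was -0.12, against 0.08, and the groups did not overlap for 1 member that was higher, beside 28.5% of all genes, and for 4 that were lower, beside 13.2%, together 5 of 8 beside 41.7%. The 3 comparisons share libraries, so their counts are not independent. Among all genes called with tributyrin against mock gavage 1902 rose and 917 fell, a split that became 1466 and 1647 under quantile normalization and 1514 and 1512 under median-ratio scaling. Against vehicle it was 2325 and 1119, and 1683 and 1663 or 1564 and 1757 under the same scalings.

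**Figure D1:**
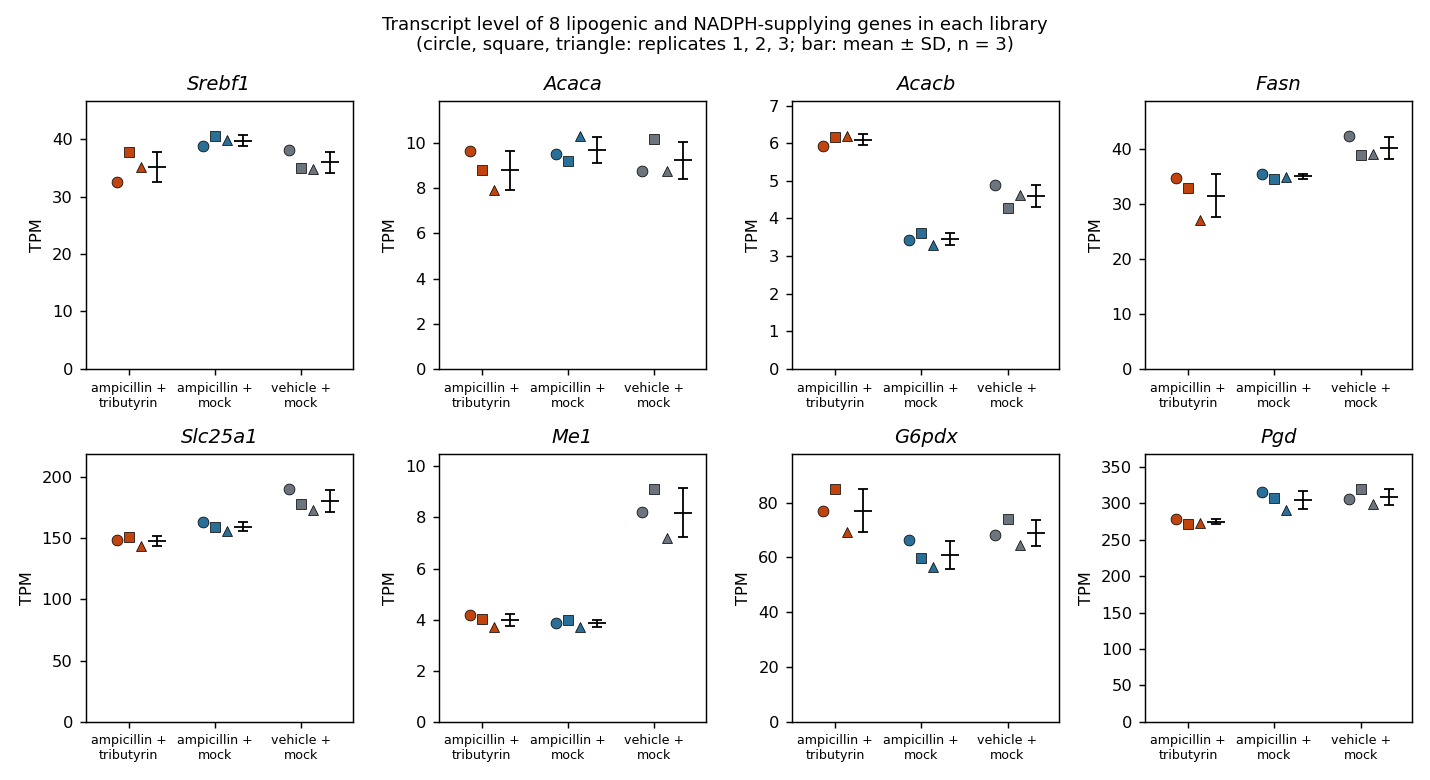
TPM (y axis, from 0) of the 8 tested genes in each of the 9 libraries, with replicates 1, 2 and 3 of a group as circle, square and triangle and the mean ± SD beside them. Me1 is at 3.72 to 4.18 TPM in both ampicillin groups and at 7.21 to 9.13 TPM with vehicle, and Acacb is highest with tributyrin and lowest with ampicillin and mock gavage, with no overlap between groups.

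Me1 had the largest change of the 8 genes. Me1 (gene ID 17436, mm10 chromosome 9, 86581363 to 86695914) encodes the cytosolic malic enzyme, which makes pyruvate and NADPH from malate. It stood at 4.18, 4.02 and 3.72 TPM in the libraries of ampicillin with tributyrin. With ampicillin and mock gavage it was at 3.85, 3.98 and 3.72 TPM, against 8.23, 9.13 and 7.21 TPM with vehicle. All 6 libraries of ampicillin-treated mice lay below all 3 vehicle libraries, and the 2 ampicillin groups overlapped. Me1 fell by 0.92 ± 0.084 on the log2 scale in the ampicillin group with mock gavage against vehicle (adjusted p = 0.000190), with a mean of 3.85 TPM against 8.19 TPM. Tributyrin against mock gavage among ampicillin-treated mice gave 0.04 ± 0.084 (adjusted p = 0.795, 95% interval -0.16 to 0.23), and this value took the opposite sign under quantile and median-ratio scaling. Ampicillin with tributyrin against vehicle gave -0.88 ± 0.084 (adjusted p = 0.000338). As these are bulk samples, fewer cells that express a gene and less RNA per cell cannot be told apart. Other markers also differed with ampicillin. Counts of called markers in this comparison stand beside 21.3% of all genes called. Of 7 general epithelial markers 5 were called, and the 7 summed to 9569 to 9979 TPM with ampicillin and mock gavage and 11688 to 13230 TPM with vehicle. Of 8 small intestinal enterocyte markers 4 were called, and the 8 summed to 1550 to 1739 TPM with ampicillin and mock gavage and 1619 to 2335 TPM with vehicle. Most of both sums was Fabp2, at 1608 ± 93.0 and 1677 ± 172 TPM in that order of groups. Single markers of this list went both ways. Apob was at 25.1 ± 2.47 and 12.0 ± 2.66 TPM in the same order, and Alpi at 13.2 ± 0.604 and 31.2 ± 3.78 TPM. The 6 Paneth cell markers, 2 of them called, summed to 0.712 to 0.874 TPM with ampicillin and mock gavage and 2.47 to 66.8 TPM with vehicle. Vehicle replicate 2, the highest library in the enterocyte and Paneth cell sums, was also the highest for Me1. Without it the log2 fold change of Me1 was -0.84 (adjusted p = 0.000649). Among 4 endothelial markers Pecam1 alone was above 1 TPM on average, at 0.586 ± 0.0660 TPM with ampicillin and mock gavage and 3.79 ± 0.253 TPM with vehicle, while Cdh5 was at 0 in all libraries of both groups and Kdr and Plvap did not pass 0.123 TPM in any of them. Of 7 absorptive colonocyte markers 4 were called, and the 7 summed to 28805 to 31262 TPM with ampicillin and mock gavage and 29947 to 32391 TPM with vehicle. Most of both sums was Car1, at 28044 ± 1100 and 28216 ± 1300 TPM in that order of groups. Other markers of this list went both ways: Krt20 was at 567 ± 22.2 and 1082 ± 179 TPM in the same order, and Slc9a3 at 89.7 ± 19.2 and 32.7 ± 8.61 TPM. The 7 goblet cell markers, 2 of them called, summed to 9114 to 10233 and 10025 to 13082 TPM. The part of these markers in the fall of Me1 was not tested. The value without vehicle replicate 2 is no such test, as Fabp6 in vehicle replicates 1 and 3 (12.3 and 53.4 TPM) was also above every ampicillin library.

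The region round the start of Me1 is printed because this gene had the largest fold change. It covers 250 bases before to 50 after the start at the end of the annotated gene, chr9:86695865-86696164 on the minus strand, taken from RefSeq on GRCm38.p6, the assembly of mm10. Capitals mark a match to TGACNNNGC, the core of the antioxidant response element that NRF2 binds, at position -6 from the start.
Me1: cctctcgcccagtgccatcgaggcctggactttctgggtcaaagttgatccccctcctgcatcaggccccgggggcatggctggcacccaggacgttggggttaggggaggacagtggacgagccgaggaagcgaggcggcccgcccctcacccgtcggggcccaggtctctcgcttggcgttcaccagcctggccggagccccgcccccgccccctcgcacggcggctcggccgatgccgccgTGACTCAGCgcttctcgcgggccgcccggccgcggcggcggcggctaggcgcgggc
Each of 4 motifs was sought on both strands in windows of this length round all annotated starts. They were TGACNNNGC, TCACNCCAC (the core of the sterol regulatory element that SREBP binds), CACGTG (an E-box) and CCAAT (bound by NF-Y). Of 32851 windows, 12.4% held TGACNNNGC, 1.24% TCACNCCAC, 7.15% CACGTG and 37.4% CCAAT. A match is a description of the letters and not a measured binding site. Windows were found for all 9 genes, 13 in all, and none of them held TCACNCCAC within these bounds, beside 1.24% of all windows. With a match that rare, its lack in 13 windows does not set these genes apart. Another window of Me1, at a start inside the gene (chr9:86687228-86687527), held no TGACNNNGC. It held 1 CCAAT box on the opposite strand, at position -208. Other genes commonly described as NRF2 targets did not move 1 way with ampicillin: of 11 tested, 3 rose and 2 fell, beside 21.3% of all genes called (median log2 fold change 0.04, against 0.02 for all genes). Hmox1, which breaks down haem, rose by 1.26 ± 0.065 to 5.19 ± 0.0905 TPM with ampicillin, against 1.58 ± 0.0733 TPM with vehicle. Gclc, of glutathione synthesis, rose by 0.69 ± 0.048. The quinone reductase Nqo1, at 83.9 ± 6.84 TPM with ampicillin and 135 ± 11.2 TPM with vehicle, fell by 0.68 ± 0.087, and the carbonyl reductase Cbr3 fell by 1.10 ± 0.14. With tributyrin against mock gavage 2 of the 11 rose and 2 fell, beside 23.2% of all genes called (median -0.0063, against 0.05 for all genes). Nqo1 (0.28 ± 0.087) and Cbr3 (0.49 ± 0.14) rose, and Hmox1 (-0.45 ± 0.065) and Abcc3 (-0.22 ± 0.058) fell. Whether NRF2 had a part in the change of Me1 or of these genes was not tested.

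Acacb was the only one of the 8 genes called in all 3 comparisons. It encodes the acetyl-CoA carboxylase that lies at the mitochondrial surface, where its malonyl-CoA inhibits the uptake of fatty acids for oxidation (gene ID 100705, chromosome 5, 114146321 to 114250761). Its level was 5.94, 6.16 and 6.20 TPM with ampicillin and tributyrin, 3.43, 3.62 and 3.30 TPM with ampicillin and mock gavage, and 4.88, 4.29 and 4.62 TPM with vehicle. No 2 of the 3 groups overlapped: the tributyrin libraries were above vehicle and the mock-gavaged ampicillin libraries were below it. Tributyrin against mock gavage gave a log2 fold change of 0.67 ± 0.065 (adjusted p = 0.000544), with mean TPM 76.7% higher. Ampicillin with mock gavage against vehicle gave -0.33 ± 0.065 (adjusted p = 0.00787), and ampicillin with tributyrin against vehicle 0.34 ± 0.065 (adjusted p = 0.00603). The last call was lost under quantile normalization (0.23, adjusted p = 0.0596).

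The other carboxylase gene, Acaca (gene ID 107476, chromosome 11, 84129635 to 84401651), encodes the cytosolic enzyme that feeds malonyl-CoA to fatty acid synthase. It was at 9.63, 8.81 and 7.91 TPM with tributyrin, 9.53, 9.21 and 10.3 TPM with ampicillin and mock gavage and 8.76, 10.2 and 8.78 TPM with vehicle. The 3 groups overlapped, and Acaca was called in no comparison, with log2 fold changes of -0.13 ± 0.085 for tributyrin against mock gavage (adjusted p = 0.305, 95% interval -0.32 to 0.06), 0.06 ± 0.085 for ampicillin against vehicle (adjusted p = 0.654) and -0.07 ± 0.085 for ampicillin with tributyrin against vehicle (adjusted p = 0.594). As a share of the TPM of both carboxylase genes, Acacb made up 38.1%, 41.1% and 43.9% with tributyrin, 26.5%, 28.2% and 24.3% with ampicillin and mock gavage and 35.8%, 29.7% and 34.5% with vehicle. This share, which library scaling does not touch, did not overlap between any 2 groups. It was 14.8 percentage points higher with tributyrin than with mock gavage and 7.76 points higher than with vehicle. The difference between ampicillin with mock gavage and vehicle was -6.99 points. Each exact permutation p was 0.1, two-sided, the smallest that 3 libraries against 3 allow (0.133 adjusted over the 12 tests of proportions and sums made here). The sum of both genes, a measure chosen after the values were seen, was 14.9 ± 0.734 TPM with tributyrin, 13.1 ± 0.429 TPM with ampicillin and mock gavage and 13.8 ± 0.554 TPM with vehicle.

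The window round the annotated start of Acacb, chr5:114165268-114165567 on the plus strand of GRCm38.p6 from RefSeq, is shown because this gene differed between all groups, and it lies inside the gene rather than at its first base. Capitals mark its 1 match, a CCAAT box at position -87. Values are per gene, so starts cannot be told apart.
Acacb: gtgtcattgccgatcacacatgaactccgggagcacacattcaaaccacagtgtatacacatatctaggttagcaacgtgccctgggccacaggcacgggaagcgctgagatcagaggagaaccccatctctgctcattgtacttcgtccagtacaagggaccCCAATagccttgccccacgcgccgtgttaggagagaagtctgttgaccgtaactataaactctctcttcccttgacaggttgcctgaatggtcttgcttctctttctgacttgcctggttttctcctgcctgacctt

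**Figure D2:**
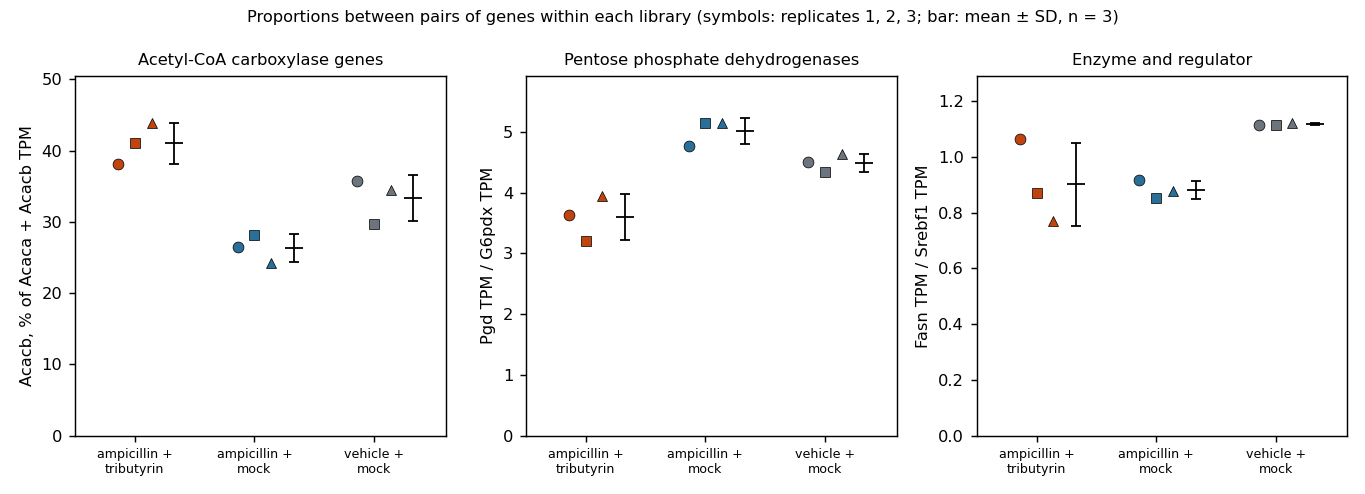
Proportions between 2 genes within each library (y axes from 0), with replicates 1 to 3 as symbols and the mean ± SD beside them. The Acacb share is 38.1% to 43.9% with tributyrin, 24.3% to 28.2% with ampicillin and mock gavage and 29.7% to 35.8% with vehicle, and the ratio of Pgd to G6pdx is lowest with tributyrin.

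G6pdx and Pgd encode the 2 dehydrogenases of the oxidative pentose phosphate pathway, each of which makes NADPH, and with tributyrin against mock gavage their fold changes differed in sign. G6pdx (gene ID 14381, chromosome X, 74409483 to 74428880), the first and rate-limiting enzyme, was at 77.0, 85.1 and 69.2 TPM with tributyrin, 66.3, 59.9 and 56.5 TPM with ampicillin and mock gavage and 68.2, 74.0 and 64.5 TPM with vehicle. All tributyrin libraries were above all mock-gavaged ampicillin libraries, and both groups overlapped vehicle. G6pdx rose with tributyrin against mock gavage by 0.33 ± 0.090 (adjusted p = 0.0302). This call was lost without ampicillin replicate 2 (adjusted p = 0.0897) or 3 (0.0921), without tributyrin replicate 1 (0.0731) or 2 (0.0991), and when only the 6 libraries compared were fitted (0.0525). The log2 fold change was -0.18 ± 0.090 for ampicillin against vehicle (adjusted p = 0.210) and 0.16 ± 0.090 for ampicillin with tributyrin against vehicle (adjusted p = 0.221).

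Pgd (gene ID 110208, chromosome 4, 149149991 to 149166705) was at 279, 272 and 273 TPM with tributyrin, 316, 307 and 291 TPM with ampicillin and mock gavage and 306, 320.5 and 299 TPM with vehicle. The tributyrin libraries were below all others, and the remaining 2 groups overlapped. Tributyrin against mock gavage gave -0.15 ± 0.047 (adjusted p = 0.0524). Ampicillin with tributyrin against vehicle gave -0.17 ± 0.047 (adjusted p = 0.0306), a call lost in 7 of 19 alternatives: without vehicle replicate 1 (adjusted p = 0.0621) or 2 (0.0787), without ampicillin replicate 2 (0.0515), without tributyrin replicate 1 (0.0614), 2 (0.0885) or 3 (0.0523), and with only the 6 libraries compared (0.0537). Ampicillin against vehicle gave -0.02 ± 0.047 (adjusted p = 0.829). The ratio of Pgd to G6pdx, chosen after the values were seen, was 3.63, 3.20 and 3.95 with tributyrin, 4.77, 5.14 and 5.15 with ampicillin and mock gavage and 4.50, 4.33 and 4.64 with vehicle. No 2 groups overlapped in this ratio, and each exact permutation p was 0.1 (0.133 adjusted over the 12).

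The window of G6pdx, chrX:74428831-74429130 on the minus strand of GRCm38.p6 from RefSeq, is shown because it was the other gene that rose with tributyrin. Capitals mark 1 match, TGACNNNGC read on the opposite strand, at position -57, and the window of Acacb holds no match to these letters. A window of Pgd, at a start inside that gene, also holds a match, TGACATTGC at position 4.
G6pdx: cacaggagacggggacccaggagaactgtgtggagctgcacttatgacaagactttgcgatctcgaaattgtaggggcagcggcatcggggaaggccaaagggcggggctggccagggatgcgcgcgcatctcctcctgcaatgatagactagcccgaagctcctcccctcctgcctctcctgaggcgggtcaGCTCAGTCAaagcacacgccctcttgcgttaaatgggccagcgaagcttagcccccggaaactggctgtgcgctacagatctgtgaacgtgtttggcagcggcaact

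Red cell transcripts also rose with tributyrin against mock gavage. In that comparison 23.2% of all genes were called and 15.6% rose, the shares beside which the counts of markers below stand. Of 5 red cell markers 3 were in the table and 2 of them rose, and the summed level of the 3 was 94.3 to 134 TPM with tributyrin, 13.4 to 36.6 TPM with ampicillin and mock gavage and 8.30 to 25.3 TPM with vehicle. The summed level of 8 immune cell markers was 13.2 to 22.9 TPM with tributyrin, 8.40 to 12.0 TPM with ampicillin and mock gavage and 9.82 to 12.2 TPM with vehicle, and 1 of the 8 was called. Of the endothelial markers 1, Pecam1, was called, at 1.38 ± 0.276 TPM with tributyrin and 0.586 ± 0.0660 TPM with mock gavage. The 7 epithelial markers, 2 of them called, summed to 10796 to 11735 TPM with tributyrin and 9569 to 9979 TPM with mock gavage. Of 7 absorptive colonocyte markers 1 was called, and of 7 goblet cell markers 0. The part of these markers in the rise of G6pdx and Acacb was not tested. Of 10 adipocyte markers, Lep and Retn were at 0 in every library, and Adipoq, Plin1, Cfd, Fabp4 and Adrb3 did not pass 0.188 TPM in any. The 3 adipocyte markers above 1 TPM on average were Cidec, Lipe and Pck1, which other tissues express too. All 3 fell with ampicillin against vehicle, beside 10.2% of all genes, and Cidec and Pck1 rose with tributyrin against mock gavage, beside 15.6%. The sum of all 10 was 84.8 to 106 TPM with tributyrin, 59.9 to 73.5 TPM with ampicillin and mock gavage and 106 to 116 TPM with vehicle. Thrsp (gene ID 21835, chromosome 7, 97412933 to 97417550), a lipogenic protein abundant in fat and liver, was listed at 0 in 7 of 9 libraries, at 0.0334 TPM in tributyrin replicate 2 and at 0.0330 TPM in ampicillin replicate 3.

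Slc25a1 and Fasn were lower in both ampicillin groups than with vehicle. Slc25a1 (gene ID 13358, chromosome 16, 17925211 to 17928219), the mitochondrial citrate carrier, was at 149, 151 and 144 TPM with tributyrin, 163, 159 and 156 TPM with ampicillin and mock gavage and 191, 178 and 173 TPM with vehicle. The 3 groups did not overlap and stood in that order from low to high. Against vehicle it fell by 0.29 ± 0.048 with ampicillin and tributyrin (adjusted p = 0.00388) and by 0.18 ± 0.048 with ampicillin and mock gavage (adjusted p = 0.0315). The call with mock gavage did not hold without replicate 1 (adjusted p = 0.0789) or 2 (0.0561) of the vehicle group, without ampicillin replicate 1 (0.0591), 2 (0.0899) or 3 (0.102), and with only the 6 libraries compared (0.0519). Tributyrin against mock gavage gave -0.11 ± 0.048 (adjusted p = 0.137).

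Fasn (gene ID 14104, chromosome 11, 120805958 to 120825166), the enzyme that builds palmitate, was at 34.6, 32.9 and 27.1 TPM with tributyrin, 35.5, 34.6 and 34.9 TPM with ampicillin and mock gavage and 42.4, 38.9 and 39.1 TPM with vehicle. Both ampicillin groups lay wholly below vehicle and overlapped each other, with tributyrin replicate 3 the lowest library. Fasn fell by 0.35 ± 0.085 with ampicillin and tributyrin against vehicle (adjusted p = 0.0182), which was not called without replicate 1 of the vehicle group (adjusted p = 0.0606) and with only the 6 libraries compared (0.0537). Ampicillin with mock gavage against vehicle gave -0.19 ± 0.085 (adjusted p = 0.149, 95% interval -0.39 to 0.00), which was called without tributyrin replicate 3 (adjusted p = 0.0250) and with only the 6 libraries compared (0.0371). Tributyrin against mock gavage gave -0.15 ± 0.085 (adjusted p = 0.224).

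The windows of Fasn (chr11:120824498-120824797) and Slc25a1 (chr16:17928170-17928469), both on the minus strand of GRCm38.p6 from RefSeq, are shown because both genes fell against vehicle with ampicillin and tributyrin. That of Fasn starts inside the annotated gene. Capitals mark matches to the motifs above. Fasn holds 3 CCAAT boxes on either strand, of which 2 overlap, and Slc25a1 an E-box at position -239 and 2 CCAAT boxes on the opposite strand, at -125 and 37.
Fasn: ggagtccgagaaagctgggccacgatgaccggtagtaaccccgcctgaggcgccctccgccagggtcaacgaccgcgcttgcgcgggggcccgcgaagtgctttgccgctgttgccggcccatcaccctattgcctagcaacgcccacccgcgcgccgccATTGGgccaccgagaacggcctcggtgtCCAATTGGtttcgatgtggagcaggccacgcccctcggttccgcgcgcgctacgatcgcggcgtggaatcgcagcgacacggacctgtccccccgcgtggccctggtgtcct
Slc25a1: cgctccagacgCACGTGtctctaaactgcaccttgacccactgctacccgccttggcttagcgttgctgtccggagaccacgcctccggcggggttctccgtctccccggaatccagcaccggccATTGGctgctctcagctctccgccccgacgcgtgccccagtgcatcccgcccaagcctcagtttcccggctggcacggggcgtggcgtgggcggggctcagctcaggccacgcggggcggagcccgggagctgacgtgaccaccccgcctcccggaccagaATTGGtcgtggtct

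Srebf1 (gene ID 20787, chromosome 11, 60199084 to 60224186) was called in no comparison. Its level was 32.6, 37.7 and 35.1 TPM with tributyrin, 38.7, 40.6 and 39.9 TPM with ampicillin and mock gavage and 38.0, 34.9 and 34.8 TPM with vehicle. The mock-gavaged ampicillin libraries were above all others, and the tributyrin and vehicle libraries overlapped. The log2 fold change was -0.17 ± 0.062 for tributyrin against mock gavage (adjusted p = 0.0751), 0.14 ± 0.062 for ampicillin against vehicle (adjusted p = 0.146) and -0.03 ± 0.062 for ampicillin with tributyrin against vehicle (adjusted p = 0.724). The first was called with short RNA entries removed (adjusted p = 0.0430) and with median-ratio scaling (0.0367). Values are per gene, so the SREBP1a and SREBP1c transcripts cannot be told apart. The ratio of Fasn to Srebf1, also chosen after the values were seen, was 1.06, 0.872 and 0.771 with tributyrin, 0.916, 0.852 and 0.876 with ampicillin and mock gavage and 1.12, 1.11 and 1.12 with vehicle. Both ampicillin groups lay below vehicle in this ratio (exact permutation p = 0.1 each, 0.133 adjusted over the 12) and overlapped each other (exact p = 0.9).

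**Figure D3:**
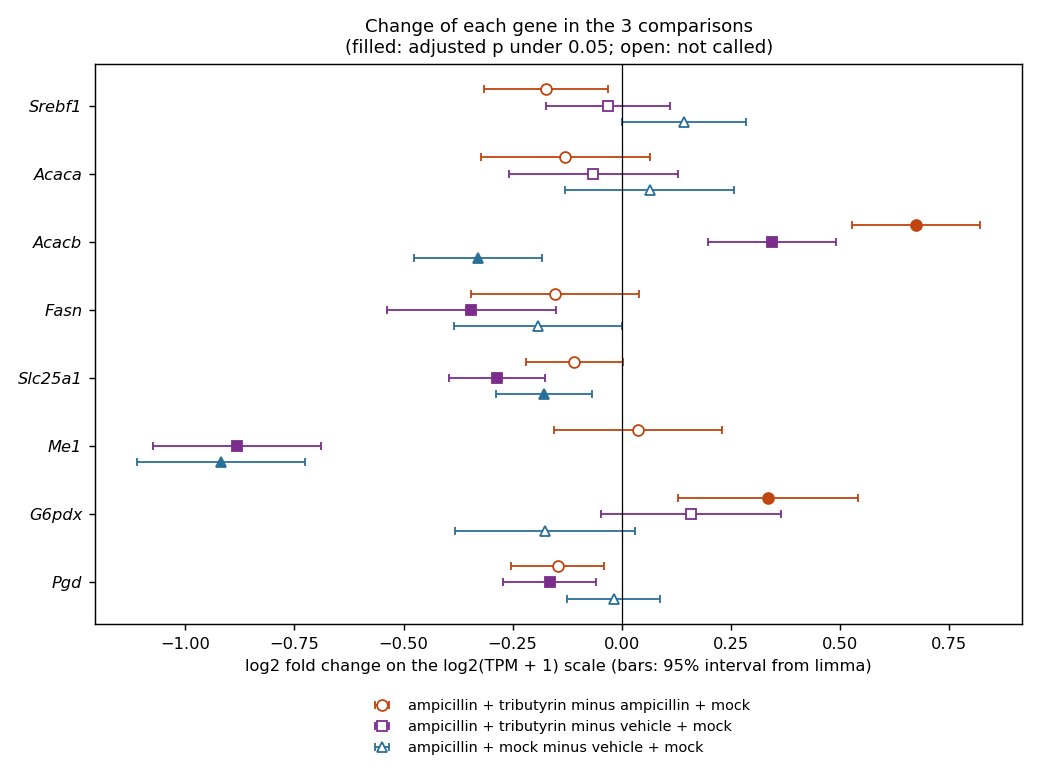
Log2 fold change (x axis, log2(TPM + 1) scale) of the 8 tested genes in the 3 comparisons, with 95% intervals from limma, filled where the adjusted p was under 0.05. Me1 lies at -0.88 and -0.92 against vehicle in the ampicillin groups with and without tributyrin, and Acacb is the only gene with filled symbols in all 3 comparisons.

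Among 21 tested genes of acetyl-CoA supply and the later steps of lipid synthesis, ampicillin with mock gavage against vehicle gave 5 that fell and 0 that rose, beside 21.3% of all genes called and 10.2% that fell (median -0.03). Scd1, a desaturase that makes oleate, was at 9.37 ± 1.2 TPM with ampicillin and 17.5 ± 1.83 TPM with vehicle and fell by 0.84 ± 0.10 (adjusted p = 0.000782). The elongase Elovl6, which extends palmitate, fell by 0.34 ± 0.086, and Dgat2, of triglyceride synthesis, by 0.38 ± 0.11. With tributyrin against mock gavage 4 rose and 3 fell, beside 23.2% of all genes called (median -0.0023). The elongase Elovl5 rose by 0.64 ± 0.095, to 31.6 ± 3.96 TPM against 19.9 ± 1.10 TPM, and the desaturase Fads1 by 0.56 ± 0.17, both of which act on polyunsaturated fatty acids. The desaturase Scd2 fell by 0.54 ± 0.068, to 75.6 ± 5.70 TPM against 110 ± 6.42 TPM, and Aacs, which activates acetoacetate in the cytosol for lipid synthesis, by 0.52 ± 0.059. Dgat2 rose by 0.36 ± 0.11 (adjusted p = 0.0445). The 2 direct makers of cytosolic acetyl-CoA, picked after their values were seen, were Acly and Acss2, which uses acetate. Acly was at 88.8 ± 3.44 TPM with tributyrin and 80.5 ± 0.928 TPM with mock gavage (adjusted p = 0.211), and Acss2 rose by 0.27 ± 0.059 (adjusted p = 0.0126). Acss2 fell by 0.21 ± 0.059 with ampicillin and mock gavage against vehicle (adjusted p = 0.0343). Ampicillin with tributyrin against vehicle gave 0.06 ± 0.059 for Acss2 (adjusted p = 0.463).

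Sterol genes, which share SREBP control with the lipogenic genes, fell widely with tributyrin. Of 22 tested genes of sterol synthesis and control, 19 fell and 0 rose against mock gavage, beside 7.54% of all genes that fell, with a median of -0.67, against -0.12 for the 8 lipogenic genes. The squalene synthase gene Fdft1 fell by 0.92 ± 0.080 (adjusted p = 0.000425). The fall of sterol genes was known when this list was chosen, and the difference between both medians was not tested. Among 24 regulators of lipogenesis 3 rose and 4 fell with tributyrin against mock gavage, beside 23.2% of all genes called. Insig1, which holds SREBP precursors in the endoplasmic reticulum, fell by 1.28 ± 0.13, Srebf2, which encodes SREBP2, fell by 0.33 ± 0.084, and Mlxipl, which encodes the glucose-responsive factor ChREBP, rose by 0.36 ± 0.088 to 23.5 ± 2.52 TPM, against 18.0 ± 0.133 TPM. With ampicillin against vehicle 5 of the 24 rose and 0 fell, beside 21.3% of all genes called, led by Insig1 (0.85 ± 0.13) and the liver X receptor gene Nr1h3 (0.60 ± 0.050). Of the 22 sterol genes 7 rose and 1 fell in that comparison, beside the same share.

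Of the 6 remaining pentose phosphate genes, all tested, 3 rose and 0 fell with tributyrin against mock gavage (median 0.14), beside 15.6% of all genes that rose. H6pd, the dehydrogenase of the endoplasmic reticulum lumen, was at 6.27 ± 0.734 TPM with tributyrin and 3.69 ± 0.452 TPM with mock gavage and rose by 0.63 ± 0.097 (adjusted p = 0.00313). The transaldolase gene Taldo1 rose by 0.16 ± 0.044 and Rpia, of ribose phosphate interconversion, by 0.17 ± 0.051. With ampicillin against vehicle 1 of the 6 fell, beside 10.2% of all genes, which was Rpia (-0.29 ± 0.051). A further list held 12 tested genes linked to NADPH, not all of which make it: Nadk and Nadk2 phosphorylate NAD, Mthfd1l is a formate-tetrahydrofolate ligase, and Me2 works mainly with NAD. Of the 12, 3 fell and 1 rose with ampicillin against vehicle, beside 21.3% of all genes called, and 3 rose and 0 fell with tributyrin against mock gavage, beside 23.2%. Mitochondrial isocitrate dehydrogenase, Idh2, was at 197 ± 8.13 TPM with tributyrin, 141 ± 2.04 TPM with ampicillin and mock gavage and 185 ± 5.92 TPM with vehicle, and both of those changes were called (0.48 ± 0.046 for tributyrin against mock gavage, adjusted p = 0.000542, and -0.39 ± 0.046 for ampicillin against vehicle, adjusted p = 0.000635). The mitochondrial malic enzyme Me2 was at 214 ± 11.8, 187 ± 1.59 and 256 ± 2.78 TPM in the same order of groups. It fell with ampicillin by 0.45 ± 0.047 (adjusted p = 0.000335) and rose with tributyrin against mock gavage by 0.20 ± 0.047 (adjusted p = 0.0183). Its level was higher than that of cytosolic Me1 in each group.

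Of 14 genes by which citrate, malate, aspartate and pyruvate cross into and out of mitochondria, 7 rose and 2 fell with ampicillin against vehicle (median 0.15), beside 21.3% of all genes called. With tributyrin against mock gavage 1 rose and 1 fell (median -0.03), beside 23.2%. Got1, the cytosolic aspartate aminotransferase, stood at 152 ± 7.14 TPM with tributyrin, 150 ± 13.1 TPM with ampicillin and mock gavage and 76.4 ± 5.03 TPM with vehicle, and rose by 0.97 ± 0.076 with ampicillin against vehicle (adjusted p = 8.85e-05). The pyruvate carrier subunit Mpc1 rose by 0.49 ± 0.069, and Slc25a10, the dicarboxylate carrier, fell by 0.29 ± 0.050. With tributyrin, the pyruvate carboxylase gene Pcx fell by 0.25 ± 0.056 against mock gavage and the mitochondrial aminotransferase gene Got2 rose by 0.43 ± 0.10.

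**Figure D4:**
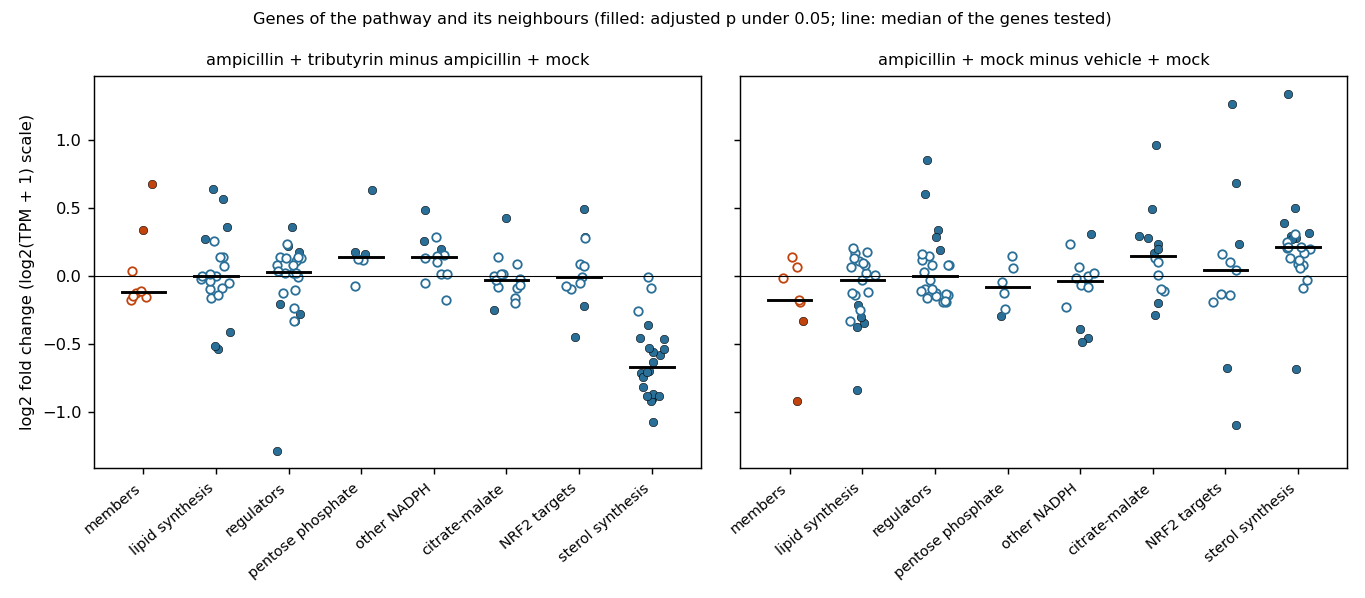
Log2 fold change (y axis, log2(TPM + 1) scale) of each tested gene of the 8 members and of 7 related lists, for tributyrin against mock gavage among ampicillin-treated mice and for ampicillin against vehicle. The line is the median of the genes tested, which for tributyrin is -0.67 for sterol genes and -0.12 for the members.

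Across the 9 libraries the tested genes fell into no single pattern, and the following correlations are descriptions over libraries that share 1 scaling and 3 treatments. Pearson's r was 0.91 between Fasn and Slc25a1, 0.88 between Me1 and Slc25a1 and 0.78 between Acacb and G6pdx, whereas it was -0.73 between Acacb and Pgd and -0.62 between Acacb and Acaca. The genes most like Me1 among 11049 were Adamts15 (r = 0.99), Adra2a (0.99), Rbp4 (0.99), Ggt1 (0.98) and Oas3 (0.98). Those most like Fasn were Clca3a2 (0.98), Mrps9 (0.98), Rabl6 (0.96), Nol6 (0.96) and Gstz1 (0.95). For Acaca they were Usp25 (0.95), Sema5a (0.95), Gnaq (0.94), Vps13b (0.94) and Megf9 (0.94), and for Srebf1 Mirc35hg (0.92), Agfg2 (0.92), Bbc3 (0.90), Ehmt2 (0.89) and Tacc2 (0.89). None of these 20 genes belongs to the lists above.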

How the data were processed

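RNA was measured in 9 libraries of caecal epithelial cells, grouped and numbered by their titles. Per the labels' protocols, cells were released with DTT and EDTA and then Dispase, with no sort described. The authors deposited 1 table of TPM, with a value for each gene in each library. The tools Salmon 0.8.2 and DESeq2 1.20.0 and the build mm10 are named, per the submitters' processing notes, with no role stated. How transcripts were summed to genes, and with which annotation and strand setting, is not given in the sources used here. As TPM keeps no depth, no counting interval was given and no count model was used.

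Genes with a mean of at least 1 TPM over the 9 libraries (12155 of 24091) entered limma 3.58.1 (R 4.3.3) on the log2(TPM + 1) scale. The model gave each group its own mean, left 6 residual degrees of freedom, moderated variances with a trend, used no replicate block and was tested on simulated data. Two-sided p-values were adjusted by Benjamini-Hochberg over all genes tested, and a gene was called under 0.05. Proportions were compared by exact permutation over libraries with scipy 1.17.1. Alternatives were 10 other settings and leaving out each of the 9 libraries. Named genes are the 9 members, up to 4 called genes per list and comparison by size of change, and the 5 genes most correlated with each of 4 members, leaving out predicted genes, pseudogenes and small RNA. Some genes that this rule names are not reported here. Members and lists were chosen with earlier results of these data known. Of the 24091 IDs, 24045 matched a RefSeq table of GRCm38.p6, the assembly of mm10, and positions are those of whole genes. Deviations from the group means correlated weakly between same-numbered libraries, at r of -0.050 to 0.11 (over 0.1 in 1 of 9 pairs). Between other libraries of different groups r was -0.12 to 0.075. Numbers were not taken as pairs, and a fit with them as a block is given below. Figures used matplotlib 3.10.9.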

Additional observations from a re-analysis of the deposited data

How the results depend on the processing

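Over 10 other settings and 9 fits that each left out 1 library, 417 values of single genes kept direction and call, 21 lost a call, 8 gained one and 7, all of genes not called, changed sign. The sign changes were Me1 with tributyrin against mock gavage under quantile normalization (-0.088) and median-ratio scaling (-0.0084), Pgd with ampicillin against vehicle without vehicle replicate 2 or ampicillin replicate 3 (-0.045 to 0.015 with a library left out), and, with tributyrin against vehicle, Srebf1 without vehicle replicate 1 or tributyrin replicate 1 (-0.083 to 0.019) and Acaca without tributyrin replicate 3 (-0.13 to 0.00013). The calls of Me1 against vehicle in both ampicillin groups, of Acacb with tributyrin against mock gavage and with ampicillin against vehicle, and of Slc25a1 with tributyrin against vehicle held in each alternative that could be fitted; Acacb could not be fitted with a minimum mean of 5 TPM.

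The count of the 8 genes called with tributyrin against mock gavage was 2 as reported, 1 with a minimum mean of 5 TPM, 1 with only the 6 libraries compared, 4 with median-ratio scaling and 1 to 3 when a library was left out. Ampicillin with tributyrin against vehicle gave 5 as reported, 3 with only the 6 libraries compared and 3 to 5 with a library left out, and ampicillin against vehicle gave 3, and 2 to 4. Over all genes, counts with a library left out ran from 1587 to 3011 for tributyrin against mock gavage, from 2093 to 3786 against vehicle and from 1774 to 2810 for ampicillin against vehicle. The cause of these shifts was not tested. Acacb shares differed by 13.3 to 16.2 percentage points for tributyrin against mock gavage, 5.93 to 9.22 against vehicle, and -8.82 to -5.75 for ampicillin against vehicle with a library left out. With the replicate number as a block, Pgd was also called with tributyrin against mock gavage (adjusted p = 0.0402), giving 3 genes called in place of 2, and no other call of the 8 genes changed. Calls over all genes became 3009, 3569 and 2707 under the block, in that order of comparisons, and a sign-flip test of the Acacb share over 3 pairs cannot give a p below 0.25. Depth is unknown, so counting error at low levels, such as those of Me1 and Acacb, could not be given.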
